A study of Mus musculus and Acomys cahirinus with 25 samples.

Results

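The genes described here encode the enzymes that hydroxylate and crosslink collagen: the lysyl oxidases Lox, Loxl1, Loxl2, Loxl3 and Loxl4, the lysyl hydroxylases Plod1, Plod2 and Plod3, and the prolyl 4-hydroxylase alpha subunits P4ha1 and P4ha2. They were chosen by symbol, 10 genes of the 24500 counted in each library, and none was chosen by its level. RNA-seq was made from the epidermis and the dermis of dorsal skin in 2 rodents that regrow hair in large wounds, a process called wound-induced hair neogenesis (WIHN). The samples were healing wounds and, in the spiny mouse, also skin taken here as unwounded. Levels are given as counts scaled to 1000000 reads on genes (CPM) in each library.

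The laboratory mouse contributed 13 libraries from post-wound day (PWD) 14 of animals that, per the methods, were wounded at 4 weeks of age. Wild-type (WT) epidermis was taken from the wound center (n = 2) and the wound margin (n = 2), and WT dermis from the center (n = 5) and the margin (n = 2). A further 2 libraries came from center dermis labelled KO, which the study's methods identify as K14-Cre-Twist1, a line in which a keratin 14-driven Cre deletes Twist1 in the epidermis. The methods name C57BL/6J as the main strain and Twist1+/+ mice as wild-type animals for the transgenic work, and do not say which of them gave which WT library. The layer that was sequenced in the KO, the dermis, is not the layer that the Cre targets, so the Twist1 counts in these libraries check nothing about the deletion. The African spiny mouse Acomys cahirinus, a species known for scar-free skin healing, contributed 12 libraries of wild-type animals. The methods give 2 months as their age for wounding. Its epidermis was sampled at PWD0 (n = 1), PWD14 (n = 2), PWD21 (n = 2) and PWD28 (n = 1), and its dermis at PWD0 (n = 2), PWD14 (n = 1), PWD21 (n = 2) and PWD28 (n = 1). The study took the whole spiny mouse wound, without a split by region, and used both sexes. It describes PWD0 as the state before WIHN, and its methods name shaved skin beside wounds. PWD0 is therefore taken here as unwounded skin. A supplementary sample list of the study gives other post-wound days for some spiny mouse libraries, and the days of the labels are used throughout. Nothing in the labels says which libraries came from the same animal, so p-values measure the spread between these libraries.

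Collagen chains are modified in the endoplasmic reticulum before they fold. Prolyl 4-hydroxylase, a tetramer of catalytic alpha and protein disulfide isomerase beta subunits, makes the hydroxyproline that keeps the triple helix stable at body temperature. Lysyl hydroxylases make hydroxylysine, and PLOD2 acts on the telopeptides at the ends of the chains, where hydroxylysine directs the more stable type of crosslink found in stiff and fibrotic tissue. After secretion and trimming, lysyl oxidases oxidise lysine and hydroxylysine residues of collagen and elastin, and the aldehydes then form crosslinks between neighbouring molecules. In skin, fibroblasts are the main source of fibrillar collagen. The study measured the stiffness of these wounds, which is the reason to look at the enzymes.

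The lysyl oxidase genes other than Lox lie at chr9:58287723-58313212 (Loxl1, minus strand), chr14:69608692-69695834 (Loxl2, plus strand), chr6:83034205-83052566 (Loxl3, plus strand) and chr19:42592279-42612806 (Loxl4, minus strand) of GRCm38. The lysyl hydroxylases lie at chr4:147909753-147936776 (Plod1, minus strand), chr9:92539636-92608428 (Plod2, plus strand) and chr5:136987019-136996646 (Plod3, plus strand). The prolyl 4-hydroxylase subunits lie at chr10:59323197-59373304 (P4ha1) and chr11:54100924-54131668 (P4ha2), both on the plus strand. Loxl3 overlaps Htra2 and Plod3 overlaps Znhit1 on opposite strands, and opposite-strand transcripts are annotated at Lox, Loxl2 and Plod2. The laboratory mouse reads kept strand information, but the spiny mouse reads did not, so spiny mouse counts of these genes cannot be separated from their antisense partners.

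RefSeq promoter windows for GRCm38.p6, each running from 250 bases before to 50 bases after the start site the table uses, were at hand for 5 of the 10 genes: Plod1, Plod3, P4ha1, P4ha2 and Loxl4. For P4ha1 that site lies downstream of the first base of the gene given above. The windows of P4ha1 and P4ha2 are shown because these partners, which encode alternative catalytic subunits of the same enzyme, moved apart in spiny mouse epidermis. These windows are laboratory mouse sequence, and spiny mouse promoters were not examined. Both are printed 5′ to 3′ along the gene's strand, with capitals at each ACGTG or GCGTG on either strand, the core of the element bound by hypoxia-inducible factors.
P4ha1, chr10:59323046-59323345, plus strand: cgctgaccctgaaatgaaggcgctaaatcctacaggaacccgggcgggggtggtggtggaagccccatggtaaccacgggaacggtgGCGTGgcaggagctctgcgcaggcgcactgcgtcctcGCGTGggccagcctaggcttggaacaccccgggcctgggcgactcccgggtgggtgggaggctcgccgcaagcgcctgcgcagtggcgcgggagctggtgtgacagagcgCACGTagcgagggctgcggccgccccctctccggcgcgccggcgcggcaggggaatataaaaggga
P4ha2, chr11:54100674-54100973, plus strand: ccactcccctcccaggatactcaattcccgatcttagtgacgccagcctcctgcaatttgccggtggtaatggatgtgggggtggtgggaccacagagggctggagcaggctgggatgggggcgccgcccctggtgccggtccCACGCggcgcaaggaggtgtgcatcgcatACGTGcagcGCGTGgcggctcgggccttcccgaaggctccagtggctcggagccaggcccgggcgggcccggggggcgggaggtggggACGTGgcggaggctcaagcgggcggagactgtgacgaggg
The P4ha1 window held 1 ACGTG and 2 GCGTG, and the P4ha2 window held 2 of each, with no overlap between matches. At least 1 of these motifs was found in all 5 windows, and in 43.8% of the 32851 RefSeq promoter windows of the same length (ACGTG in 19.6% and GCGTG in 32.4%). The matches describe these letters only.

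Sequencing depth on genes ran from 19413261 to 86532134 reads in the laboratory mouse and from 5669760 to 34751956 in the spiny mouse. Spiny mouse reads were aligned to the laboratory mouse genome, where 38.0 to 60.5% of them were set aside for low alignment quality against 23.3 to 34.4% in the laboratory mouse, so levels were tested within a species only. Each layer held the markers of its main cell type. The summed level of 12 keratinocyte genes was 155314 to 214897 CPM in laboratory mouse epidermis and 41195 to 89487 CPM in spiny mouse epidermis. That of 12 fibroblast genes was 7667 to 17648 CPM in laboratory mouse dermis and 5455 to 18695 CPM in spiny mouse dermis. KO replicate 2 stood apart, with 35570 CPM of keratinocyte genes against 90 to 4788 CPM in the other 8 laboratory mouse dermis libraries. In spiny mouse dermis at PWD0, the baseline of the later days, the keratinocyte sums of 12218 and 8562 CPM also exceeded the fibroblast sums of 6447 and 5455 CPM. The 5 WT center dermis libraries form 2 sets in the study's own comparisons, replicates 1 and 2 with the margin and replicates 3 to 5 with the KO, a split taken from the study's supplement and followed here.

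In the laboratory mouse, all 10 enzymes were higher in dermis than in epidermis. At the wound center, the log2 fold changes of epidermis against dermis were -1.89 to -5.11, and at the margin they were -1.56 to -7.71. All 10 were called in each region by the quasi-likelihood test of edgeR at a Benjamini-Hochberg FDR under 0.05. The layers differed widely in general: 51.8% of 15017 tested genes were called at the center and 47.7% of 14964 at the margin, and 25% and 26.8% were called lower in epidermis. The median log2 fold change of the members was -2.99 at the center and -5.11 at the margin, beside -0.08 and -0.16 over all tested genes. Bulk libraries cannot tell fewer cells of a type from less RNA per cell, and the epidermis was sequenced paired-end and the dermis single-end, which cannot be told apart from the layer.

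**Figure D1:**
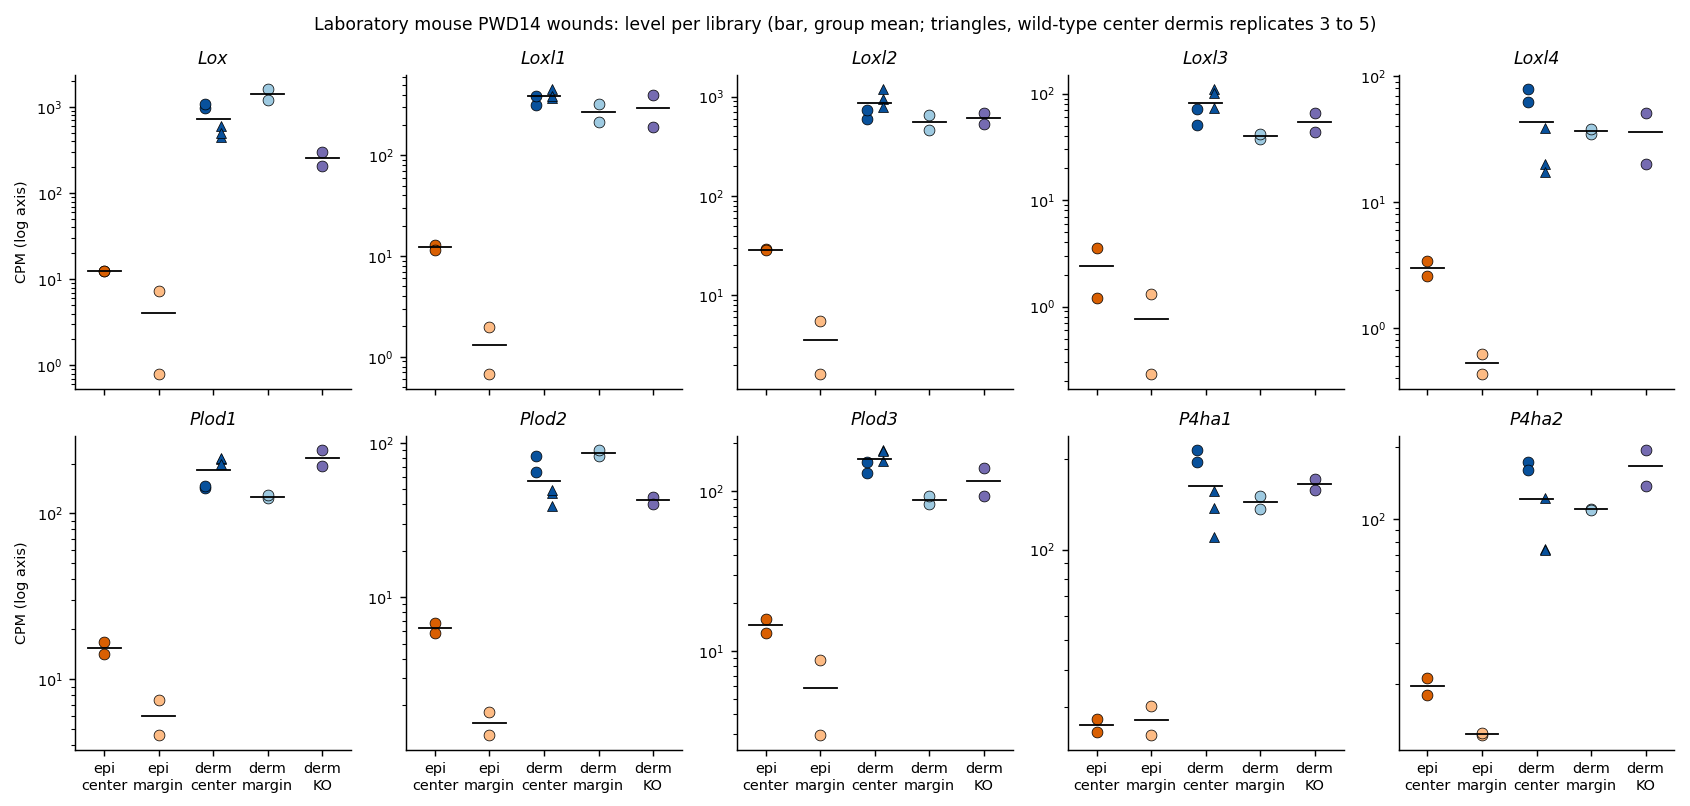
Level of each enzyme gene in the 13 laboratory mouse libraries at PWD14, in CPM on a log axis. Each point is 1 library and each bar a group mean; triangles mark WT center dermis replicates 3 to 5. Every dermis library sits above every epidermis library for all 10 genes, and the gap is widest for Lox, Loxl1 and Loxl2.

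The secreted lysyl oxidases showed the steepest layer difference. Lox, the prototype of the family, was at 12.6 and 12.6 CPM in center epidermis and at 984, 1078, 603, 448 and 497 CPM in center dermis. At the margin it was at 7.40 and 0.786 CPM in epidermis and at 1634 and 1218 CPM in dermis. Loxl1, which is needed for elastic fibre renewal, was at 12.9 and 11.5 CPM in center epidermis and at 313 to 457 CPM in center dermis, a 19.1-fold difference (log2 fold change -4.26, SE 0.25, FDR 4.30e-06). Loxl2, which also crosslinks basement membrane collagen IV, was at 29.2 and 28.4 CPM in center epidermis and at 598 to 1195 CPM in center dermis. No epidermis library reached the lowest dermis library for these 3 genes.

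The hydroxylases differed less between layers. Plod1, which modifies lysines within the helix, was 7.21-fold lower in center epidermis, and Plod3, which also carries glycosyltransferase activity, was 6.70-fold lower. P4ha1 was at 24.9 and 27.4 CPM in center epidermis, 30.3 and 24.2 CPM in margin epidermis and 110 to 214 CPM across the 7 WT dermis libraries. Its layer difference was 3.76-fold at the center (log2 fold change -1.91, SE 0.28, FDR 0.000398) and 2.94-fold at the margin (-1.56, SE 0.32, FDR 0.0029). In margin epidermis, P4ha1 and P4ha2 were the highest members per kilobase of transcript, at 6.62 and 5.30 CPM per kb, while the others ranged from 0.14 to 1.85. At both regions P4ha1 and P4ha2 had the smallest log2 fold changes between layers among the members, and each of the 5 lysyl oxidases had a larger one than any hydroxylase.

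In the spiny mouse at PWD21, 9 of 10 members were lower in epidermis than in dermis, where 62.9% of 14966 genes were called and 33.5% were called lower in epidermis. The log2 fold change was -9.04 for Lox (SE 0.48, FDR 8.34e-06), -8.49 for Loxl1 (SE 0.68, FDR 3.87e-05) and -1.45 for P4ha1 (SE 0.21, FDR 0.00078). Hardly any Lox reads were found in spiny mouse epidermis. The PWD0 library had 0 counts, the PWD14 libraries 3 and 2, the PWD21 libraries 19 and 2, and the PWD28 library 2, so that the fitted fold change rests on few reads. The count of 0 allows a level of up to 0.283 CPM (3 counts, counting error only).

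Plod2 was the member that did not follow this pattern. At PWD21 it was at 16.1 and 40.0 CPM in epidermis and at 49.2 and 14.1 CPM in dermis, so that the 2 layers overlapped (log2 fold change -0.06, SE 0.57, FDR 0.934). At PWD0 the epidermis library held 25 CPM and the dermis libraries 5.29 and 6.32 CPM, and at PWD28 the epidermis held 13 CPM and the dermis 1.85 CPM. Only at PWD14 was the dermis, at 40.8 CPM, above both epidermis libraries, at 0.620 and 2.81 CPM. In the laboratory mouse at PWD14 Plod2 was lower in epidermis at both regions, at 1.27 to 6.82 CPM against 38.7 to 90.0 CPM in WT dermis. P4ha1 at PWD0 was at 56.5 CPM in epidermis and at 54.1 and 65.2 CPM in dermis. The layers were compared by a test at PWD21 only.

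The partner genes, taken as lists, split by role in the same layer comparisons. Of 8 substrate genes, which include the fibrillar collagens Col1a1, Col1a2 and Col3a1, 8 were lower in epidermis in each of the 3 comparisons, with medians of -4.10, -5.87 and -9.14 on the log2 scale for laboratory mouse center, laboratory mouse margin and spiny mouse PWD21. Of the genes that trim procollagen or activate lysyl oxidases, 10 of 12, 10 of 12 and 11 of 13 were lower, among them Pcolce, the enhancer of procollagen C-proteinase (log2 fold change -4.33, SE 0.25, FDR 4.37e-06 at the laboratory mouse center). Of 14 partners in chain modification and folding, 9, 9 and 10 were lower, and P3h3, a prolyl 3-hydroxylase relative, fell by 6.18 at the margin (SE 0.45, FDR 7.58e-06). The list of 13 hypoxia response genes went the other way, with 12, 8 and 13 higher in epidermis. Egln3, an oxygen-sensing prolyl hydroxylase, was at 656 CPM in center epidermis and 2.4 CPM in center dermis (log2 fold change 8.87, SE 0.80, FDR 2.21e-05).

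**Figure D2:**
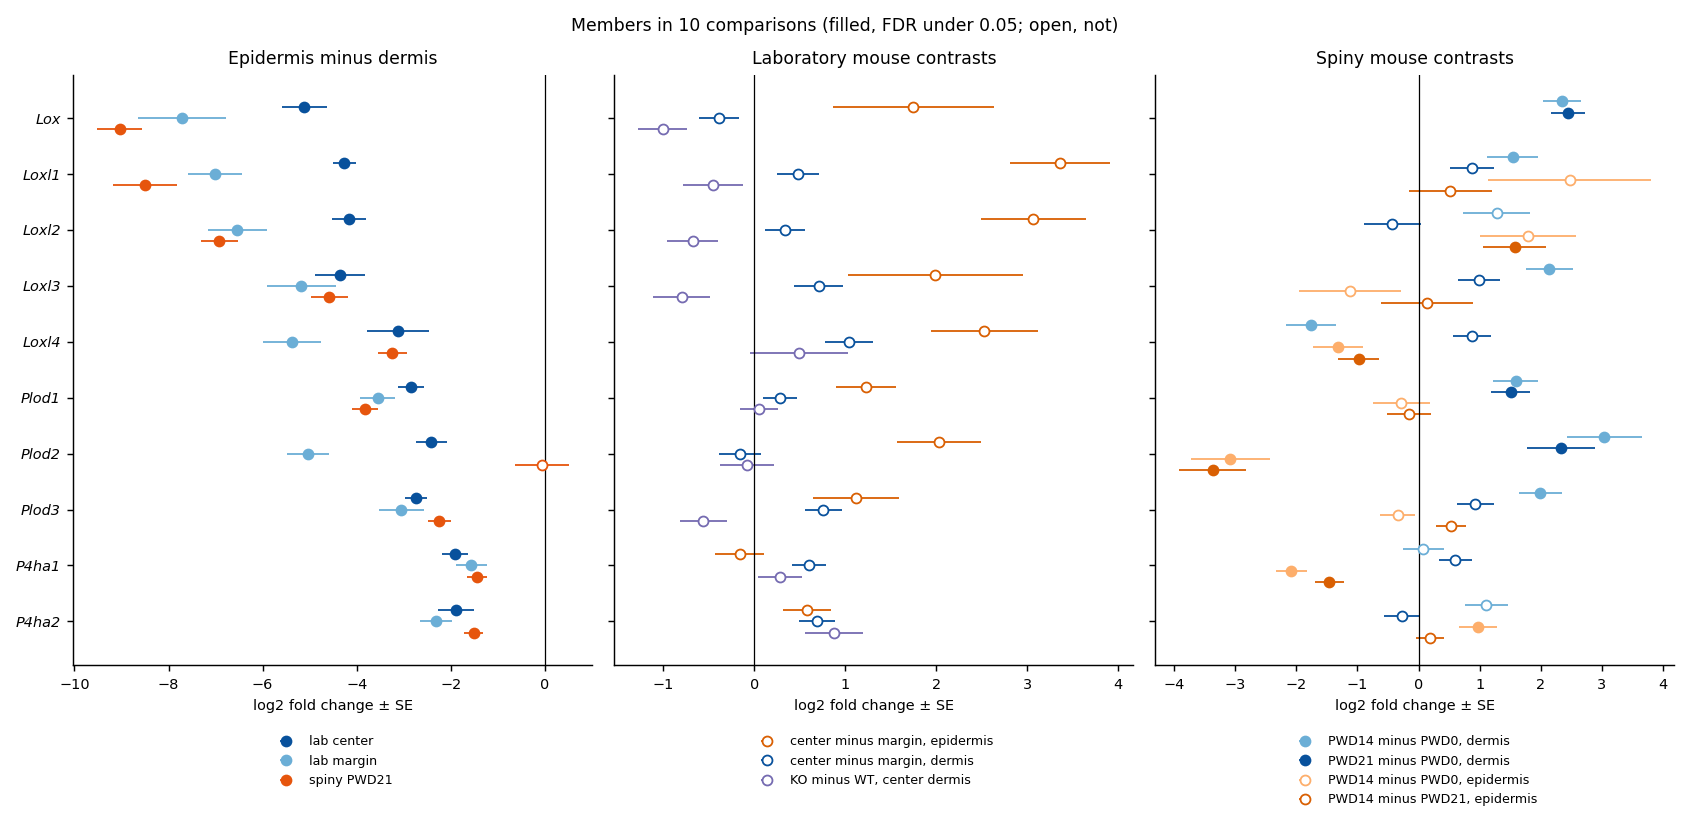
Log2 fold change of each member with its standard error in 10 comparisons, grouped by layer, by laboratory mouse contrast and by spiny mouse contrast. Filled points passed an FDR of 0.05 and open points did not. The layer contrasts are filled except Plod2 in the spiny mouse, all laboratory mouse region and genotype contrasts are open, and Plod2 lies far to the right in spiny mouse dermis and far to the left in spiny mouse epidermis at PWD14.

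The wound center, where new hair follicles form, was next compared with the margin. In epidermis, 9 of 10 members had higher point estimates at the center, with a median log2 fold change of 1.87 beside -0.02 for all genes, but none passed the test. Loxl1 was at 12.9 and 11.5 CPM at the center and at 1.96 and 0.670 CPM at the margin (log2 fold change 3.36, SE 0.55, FDR 0.059). Loxl2 was at 29.2 and 28.4 CPM at the center and at 5.56 and 1.61 CPM at the margin (3.07, SE 0.58, FDR 0.077). Plod2 was at 5.88 and 6.82 CPM against 1.79 and 1.27 CPM (2.03, SE 0.46, FDR 0.0973). Both center libraries lay above both margin libraries for these 3 genes and also for Lox, Loxl4, Plod1, Plod3 and P4ha2. The share of all genes without overlap was not counted. P4ha1 overlapped between the regions, with a log2 fold change of -0.16 (SE 0.27, FDR 0.738).

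By edgeR, 0 of 10 members were called where 1.24% of 14165 genes were, 5 members had an unadjusted p under 0.05 beside 23.5% of all genes, and DESeq2 called 5 (Loxl1, Loxl2, Loxl4, Plod1 and Plod2) beside 10.4%. The margin libraries were far apart. Without margin replicate 1 the test called 9 members, among 5508 genes called in all, and without margin replicate 2 it called 8 among 7405, although the lone margin library is then assumed to vary like the center libraries. Without margin replicate 1 the Lox value rose from 1.75 to 3.97, and without replicate 2 it dropped to 0.62.

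The summed levels of dermal cell markers were also higher at the center in these 4 epidermis libraries, with 3 of 12 fibroblast and 0 of 5 endothelial genes called by edgeR. The 12 fibroblast genes summed to 302 and 259 CPM at the center and to 126 and 91.1 CPM at the margin, with 12 detected in 3 of the libraries and Fap and Mfap5 at 0 in margin replicate 1. The 5 endothelial genes summed to 29.9 and 19.6 CPM at the center and to 6.63 and 1.57 CPM at the margin, where Kdr and Tek were at 0 in replicate 2. Their part in the result was not tested. Among the partner lists, 3 of 8 substrates rose at the center, led by the basement membrane chain Col4a1 (83.1 against 6.58 CPM, log2 fold change 3.61, SE 0.45, FDR 0.0375). Of 10 tested processing genes, 4 rose, among them Fbln5, an elastic fibre protein that binds lysyl oxidases (4.12, SE 0.45, FDR 0.0367), and of 14 modification partners the collagen chaperone Serpinh1 rose (2.13, SE 0.26, FDR 0.0369). The other members of these lists did not pass.

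In dermis, 8 of 10 members had higher point estimates at the center. Their median log2 fold change was 0.54 beside -0.03 for all genes. With WT center replicates 1 and 2, 0 of 10 members were called by edgeR, where 0.85% of 14698 genes were, 5 members had an unadjusted p under 0.05 beside 15.8% of all genes, and DESeq2 called 4 beside 5.02%. Loxl4 was at 62.4 and 79.5 CPM at the center and at 34.8 and 38.3 CPM at the margin (log2 fold change 1.04, SE 0.26, FDR 0.115). Plod3 was at 130 and 152 CPM against 83.2 and 93.7 CPM (0.76, SE 0.20, FDR 0.141). Lox had the opposite sign, at 984 and 1078 CPM against 1634 and 1218 CPM (-0.39, SE 0.22, FDR 0.443). With all 5 WT center libraries, Plod3 passed (1.03, FDR 0.0392). The keratinocyte genes summed to 800 and 556 CPM at the center and to 2428 and 4788 CPM at the margin, with Dsg3 at 0 at the center, and their part in these values was not tested.

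Whether the regional difference itself varied between the layers was tested with an interaction term. It passed for 3 of 10 members, with 3.48% of 15531 genes called. The center-to-margin difference was larger in epidermis than in dermis by 2.99 on the log2 scale for Loxl1 (SE 0.56, FDR 0.0145), by 2.85 for Loxl2 (SE 0.61, FDR 0.0281) and by 2.32 for Plod2 (SE 0.45, FDR 0.019). The P4ha genes had estimates of -0.62 for P4ha1 (SE 0.33, FDR 0.416) and 0.03 for P4ha2 (SE 0.34, FDR 1), while the median over all genes was 0.31. In the same fit, 5 of 12 fibroblast markers passed, all in the direction of the enzymes, and 6 of 12 keratinocyte markers passed as well.

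The KO comparison asked whether loss of Twist1 in the epidermis goes with a change in the underlying dermis. No member was called by edgeR, as were 0.0565% of 14163 genes, while 4 members had an unadjusted p under 0.05 beside 11.5% of all genes and DESeq2 called 1, Lox, beside 5.56%. Lox was at 303 and 209 CPM in the KO and at 603, 448 and 497 CPM in WT center replicates 3 to 5, without overlap (log2 fold change -1.01, SE 0.27, FDR 0.273, with a range of 0.00634 to 0.739 over the alternatives). P4ha2 went the other way, at 195 and 137 CPM against 74.6, 73.9 and 122 CPM (0.88, SE 0.32, FDR 0.364). Loxl2, Loxl3, Plod3, P4ha1 and P4ha2 did not overlap between the genotypes either, and none of these members passed. Plod1, at 193 and 242 CPM, overlapped with its 199 to 215 CPM in WT (0.05, SE 0.21, FDR 0.929).

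The 2 KO libraries differed from each other in cell markers. The fibroblast genes summed to 13273 CPM in KO replicate 1 and to 7667 CPM in KO replicate 2, against 12219 to 13827 CPM in WT replicates 3 to 5, and the keratinocyte genes to 1119 and 35570 CPM against 90 to 176 CPM, where 3 to 6 of the 12 were at 0. Without KO replicate 2 the Lox value was -0.73 and Loxl1 was at 0.01. Without KO replicate 1 the Lox value was -1.35. The only KO library left was then replicate 2, with its 35570 CPM of keratinocyte genes. In either case the lone KO library was assumed to vary like the WT libraries. None of the partner genes in the modification, processing, substrate and hypoxia lists passed in this comparison.

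The WT center dermis itself was not uniform. Between replicates 1 and 2 and replicates 3 to 5, a comparison added after seeing the data, Lox was higher in the first set (log2 fold change 0.93, SE 0.19, FDR 0.0132), as was Loxl4 (1.38, SE 0.33, FDR 0.0281), among 5.38% of 14172 genes called. Lox in the 2 sets did not overlap, which held for every member but Loxl1. The log2 difference of Lox, 0.93 between WT libraries, stands beside -1.01 between the KO and its WT set. The Loxl2 to Lox count ratio was 0.608 and 0.686 in replicates 1 and 2, and 1.98, 2.10 and 1.58 in replicates 3 to 5. It was 0.402 and 0.378 at the margin and 2.25 and 2.52 in the KO. Both calls were lost without replicate 1 or without replicate 2, where the highest FDR was 0.121 for Lox and 0.18 for Loxl4, and Loxl4 was also lost without replicate 3 or without replicate 4. Of 11 tested keratinocyte markers, 7 were higher in the first set, and 3 of 5 endothelial markers were lower, and their part was not tested. The labels give both sets the same genotype, region and day, and what separates them was not tested.

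**Figure D3:**
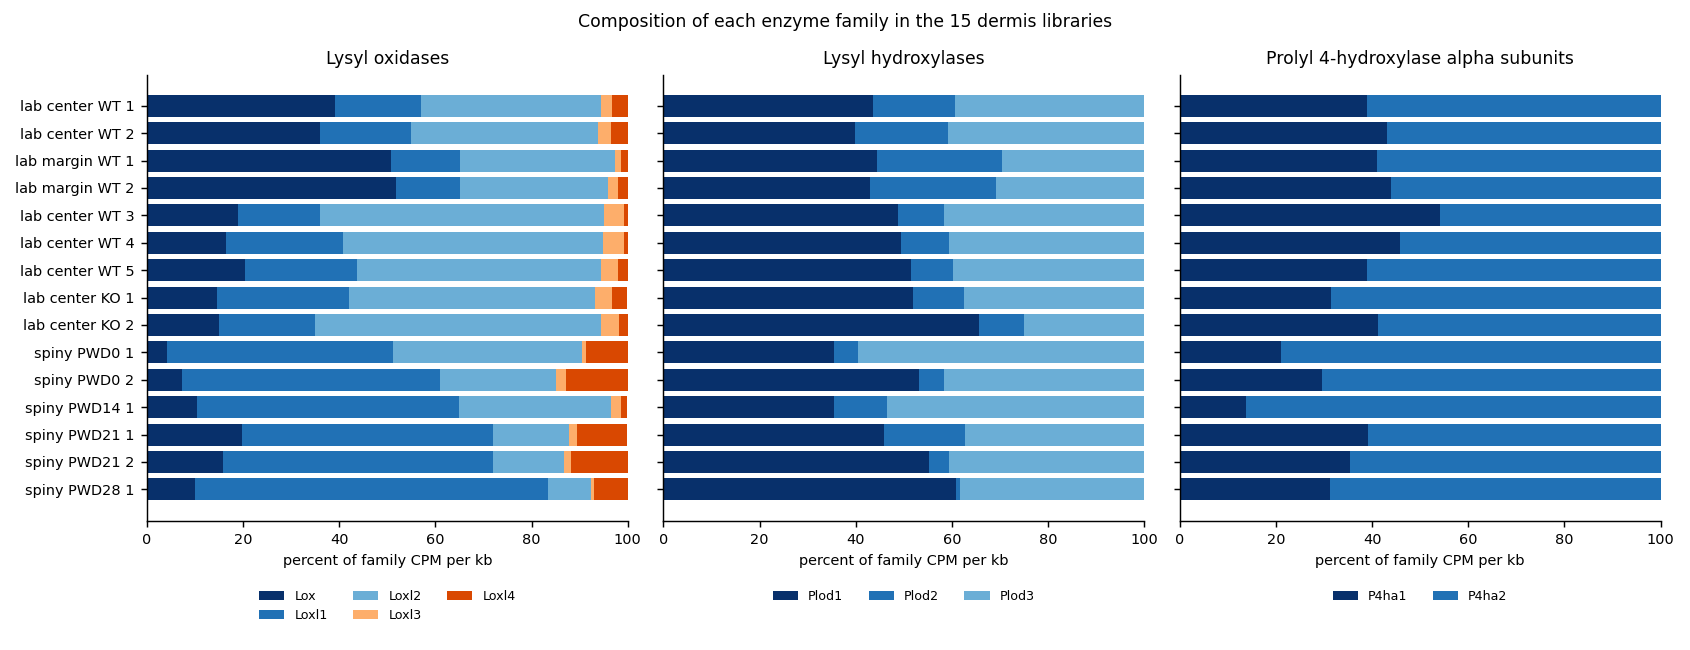
Share of each gene in its enzyme family in the 15 dermis libraries, as the percent of the family's CPM per kilobase of transcript. Lox made up 50.8 and 51.9% of the lysyl oxidases at the laboratory mouse margin, Loxl2 led in WT center replicates 3 to 5 and the KO, and Loxl1 led in all 6 spiny mouse libraries.

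Per kilobase, Loxl2 or Lox led the lysyl oxidases in laboratory mouse dermis and Loxl1 led in spiny mouse dermis. Lox held 14.5 to 51.9% of the family in the 9 laboratory mouse libraries and 4.2 to 19.7% in the 6 spiny mouse libraries, and Loxl1 held 13.2 to 27.6% and 47.0 to 73.5%. Loxl3 and Loxl4 were minor in laboratory mouse dermis, at 1.4 to 4.4% and 0.8 to 3.4%. In spiny mouse epidermis Loxl4, which was at 3.64 to 15.7 CPM, held 43.4 to 90.1% of the little lysyl oxidase signal there. How well reads of each spiny mouse gene align to the laboratory mouse genome was not tested, so the shares of the 2 species stand side by side without a comparison.

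Against the collagen message, the enzymes took a narrow range in dermis. The 10 members summed to 19.7 to 30.3 reads per 1000 reads of Col1a1, Col1a2 and Col3a1 in laboratory mouse dermis, with a median of 26.7, and to 9.25 to 16.7 in spiny mouse dermis. In laboratory mouse epidermis the value was 30.4 to 104, and in spiny mouse epidermis, where the 3 collagen genes summed to only 32 to 253 CPM, it was 274 to 4571. Lox alone ranged from 2.95 to 14.1 reads per 1000 collagen reads in laboratory mouse dermis. These ratios describe each library and have no test.

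Spiny mouse dermis was followed from unwounded skin at PWD0 through healing. From PWD0 to PWD21, 3 of 10 members rose and none fell. Lox rose from 37.2 and 40.4 CPM to 224 and 232 CPM (log2 fold change 2.45, SE 0.28, FDR 0.000787). Plod1 rose from 33.3 and 57.9 CPM to 116 and 157 CPM (1.51, SE 0.32, FDR 0.011), and Plod2 from 5.29 and 6.32 CPM to 49.2 and 14.1 CPM (2.33, SE 0.55, FDR 0.0175). The groups did not overlap for these 3 genes, nor for Loxl1, Loxl3, Loxl4, Plod3 and P4ha1, which did not pass. The share of all genes without overlap was not counted. Plod2 differed widely between the PWD21 libraries. In this comparison 26.2% of 14481 genes were called, and 12% of the 14481 were called higher at PWD21.

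The members that did not pass at PWD21 included Loxl1, at 284 and 205 CPM and then 409 and 568 CPM (log2 fold change 0.87, SE 0.36, FDR 0.103), and Plod3 (0.93, SE 0.30, FDR 0.0545). P4ha2 stayed between 87.2 and 115 CPM in all 4 libraries. Loxl2 was at 219 and 85.2 CPM at PWD0 and at 115 and 138 CPM at PWD21, and its sign turned on the PWD0 library: it was 0.61 without PWD0 replicate 1 and -1.02 without PWD0 replicate 2. Without PWD21 replicate 1 Plod2 no longer passed (1.23, FDR 0.176), and without PWD21 replicate 2 Plod1 did not (1.25, FDR 0.0932). Lox passed in each case, between 2.39 and 2.53.

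**Figure D4:**
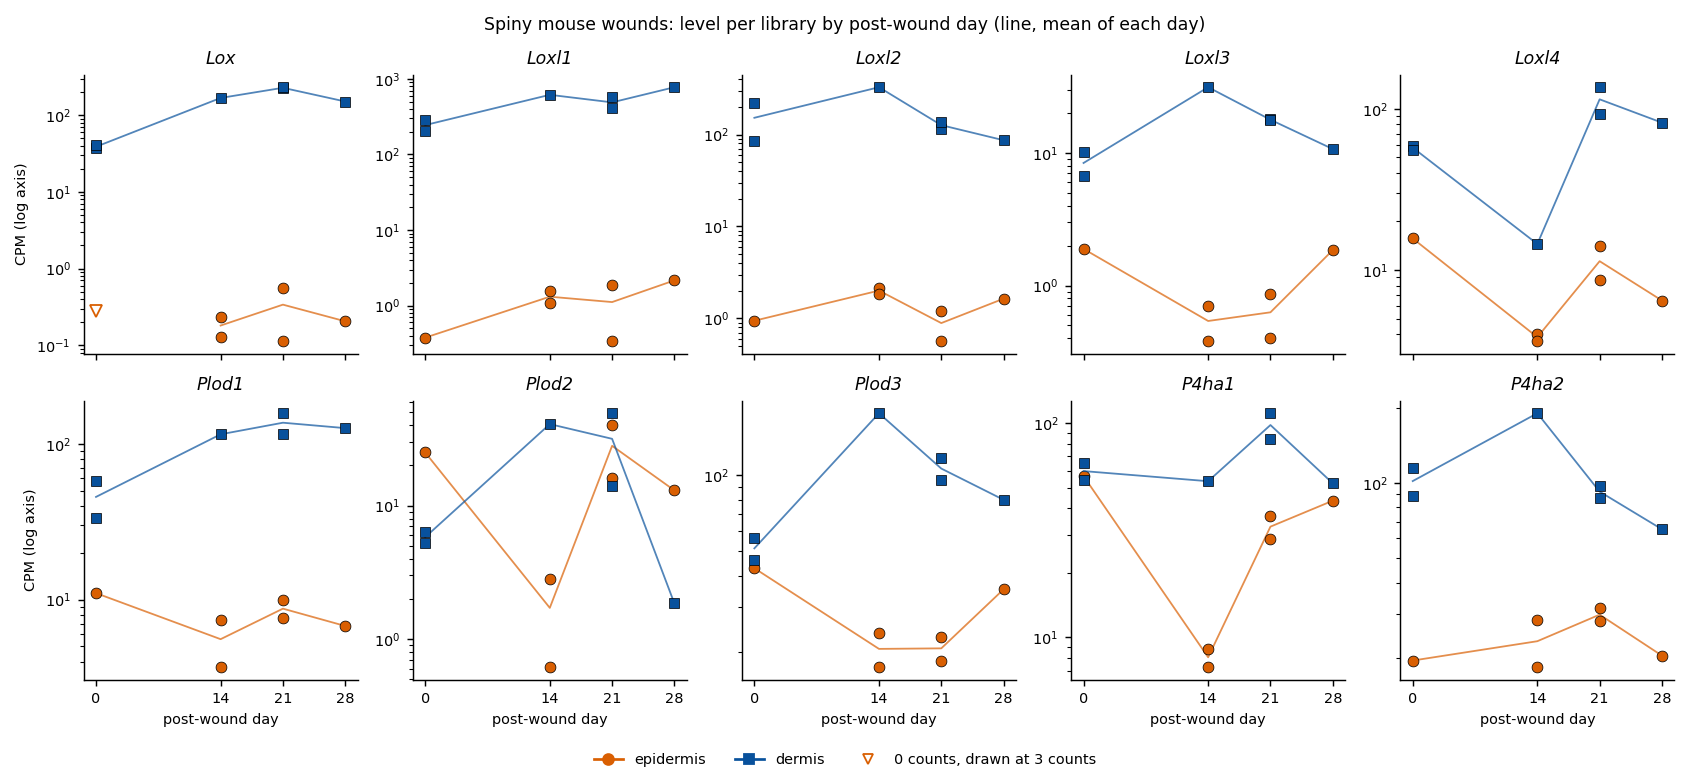
Level of each enzyme gene in the 12 spiny mouse libraries by post-wound day, in CPM on a log axis. Each point is 1 library, lines join the means of the days, and the open triangle marks 0 counts of Lox drawn at the level of 3 counts. Lox and Plod1 stay above their PWD0 levels in dermis, and Plod2, P4ha1 and Loxl4 are lowest at PWD14 in epidermis.

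At PWD14 dermis had a single library, so its own spread is unknown. In a fit of all 6 dermis libraries, in which that library is assumed to vary like the others, 6 members were called higher than at PWD0 and 1 lower, among 18.5% of 15344 genes called. Plod2 was at 40.8 CPM (log2 fold change 3.04, SE 0.61, FDR 0.0123), Lox at 168 CPM (2.35, SE 0.31, FDR 0.00208) and Plod3 at 176 CPM (1.99, SE 0.35, FDR 0.00729). Loxl1, Loxl3 and Plod1 were also called higher, with log2 fold changes of 1.54, 2.14 and 1.59. Loxl4 was called lower, going from 59.1 and 55.7 CPM to 14.5 CPM (-1.76, SE 0.41, FDR 0.0224), and was at 92.8 and 136 CPM at PWD21 and 82.0 CPM at PWD28. P4ha1, at 53.5 CPM, lay close to its 54.1 and 65.2 CPM at PWD0 (0.08, SE 0.33, FDR 0.894).

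At PWD28 the single dermis library lay below both PWD21 libraries for 8 of the 10 enzymes, while Loxl1 was at its highest, 775 CPM. Plod2 was at 1.85 CPM there, below both PWD0 libraries. The ratio of Plod2 to Plod1 counts was 0.159 and 0.109 in the PWD0 libraries, 0.354 on PWD14, 0.422 and 0.0898 on PWD21, and had its lowest value, 0.0148, on PWD28. The ratio of Loxl2 to Lox counts was 5.89 and 2.11 in the PWD0 libraries and 1.94 on PWD14, and then 0.512 and 0.598 on PWD21 and 0.573 on PWD28. All 3 libraries of the first days had a higher ratio than the later ones, on counts that are not scaled to gene length. With 1 library at PWD14 and PWD28, these ratios are descriptions.

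Other collagen genes moved in spiny mouse dermis as well. From PWD0 to PWD21, 10 of 14 modification partners, 8 of 13 processing genes and 4 of 8 substrates rose, with medians of 1.76, 1.33 and 1.36 on the log2 scale beside 0.03 over all genes. P4ha3, the third prolyl 4-hydroxylase alpha subunit, rose from 1.19 to 117 CPM on average (log2 fold change 6.51, SE 0.35, FDR 0.000144), while P4ha1 and P4ha2 did not pass. Fn1, the fibronectin on which lysyl oxidase is activated, rose from 206 to 5354 CPM (4.61, SE 0.54, FDR 0.000959), and Pcolce2, the second procollagen proteinase enhancer, fell by 7.11 (SE 0.34, FDR 0.000144). Of 11 tested hypoxia response genes 4 fell and none rose. At PWD14, 9 of 14 modification partners, 9 of 13 processing genes and 3 of 8 substrates were higher than at PWD0, and the elastin gene Eln was lower (24.5 against 514 CPM, -4.16, SE 0.58, FDR 0.00267).

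Cell markers changed over the same days. The fibroblast genes summed to 6447 and 5455 CPM in the PWD0 libraries, 7742 CPM on PWD14, 18695 and 14511 CPM on PWD21, and 9075 CPM on PWD28, all 12 being detected throughout, and 7 of 12 rose at PWD21. The keratinocyte genes summed to 12218 and 8562 CPM in the PWD0 libraries, 1797 CPM on PWD14, 802 and 1411 CPM on PWD21, and 4740 CPM on PWD28, and 10 of 12 fell at PWD21. From PWD0 to PWD21, 6 of 6 adipocyte genes fell (median log2 fold change -5.24), 6 of 7 skeletal muscle genes fell (-3.46) and 3 of 5 endothelial genes rose (1.06). The share of reads that fell on genes was 27.0 and 32.8% at PWD0 and 44.9 and 52.9% at PWD21. The part of any of these in the enzyme values was not tested.

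In spiny mouse epidermis, Plod2, P4ha1 and Loxl4 were at their lowest at PWD14. The PWD14 libraries also had the lowest share of reads on genes, 26.8 and 24.4% against 33.3 to 38.3% in the other 4. They had the lowest sum of 7 leukocyte genes, 35.3 and 36.8 CPM against 69.7 to 117 CPM. The leukocyte genes did not move as 1: against PWD21, 3 were called lower at PWD14 and 1, Cd68, higher (9.41 against 4.55 CPM). The part of the read share and of these genes was not tested. Between PWD14 and PWD21, 4 of 9 tested members were called, where 46.6% of 12889 genes were, so the share is near the background. Plod2 was at 0.620 and 2.81 CPM at PWD14 and at 16.1 and 40.0 CPM at PWD21 (log2 fold change -3.37, SE 0.55, FDR 0.00069). P4ha1 was at 7.29 and 8.87 CPM and then at 28.9 and 36.8 CPM (-1.46, SE 0.24, FDR 0.000664). Both genes kept their calls in every alternative. Their groups did not overlap, nor did those of Loxl2, Loxl4 and Plod1, of which Plod1 was not called. Loxl4 was at 4.03 and 3.64 CPM and then at 8.69 and 14.0 CPM (-0.98, SE 0.34, FDR 0.0354). Loxl2 was higher at PWD14, at 2.17 and 1.85 CPM against 1.21 and 0.571 CPM (1.57, SE 0.52, FDR 0.0288), and neither Loxl4 nor Loxl2 passed with DESeq2 or without PWD21 replicate 2.

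The single PWD0 epidermis library was on the side of PWD21. In the fit of all 6 epidermis libraries, which takes the spread from the groups of 2 and assumes that the lone PWD0 library varies like them, 4 of 9 tested members were called from PWD0 to PWD14, among 48.8% of 14336 genes. P4ha1, at 56.5 CPM at PWD0, was called lower at PWD14 (log2 fold change -2.08, SE 0.26, FDR 0.000129). Plod2, at 25 CPM at PWD0, was also lower (-3.08, SE 0.65, FDR 0.00283), as was Loxl4, at 15.7 CPM (-1.32, SE 0.41, FDR 0.0206). P4ha2 was called higher at PWD14 (0.97, SE 0.31, FDR 0.0241), although its CPM was 19.5 at PWD0 and 18.4 and 28.2 at PWD14. That call depended on the normalisation. With scaling to library size alone, the log2 fold changes dropped by 0.71 against PWD0, P4ha2 was at 0.26 (FDR 0.514), and 0 members were called higher and 4 lower in place of 1 and 3. Against PWD21 they dropped by 0.55, Loxl2 was at 1.03 (FDR 0.109), and 0 members were called higher and 3 lower in place of 1 and 3.

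The contrast between P4ha1 and P4ha2 does not depend on scaling, since it lies within a library. The ratio of P4ha1 to P4ha2 counts was 2.89 in the PWD0 library, 0.397 and 0.314 on PWD14, 0.917 and 1.31 on PWD21, and 2.13 on PWD28. Both PWD14 libraries were the lowest of the 6. In laboratory mouse epidermis at PWD14 the ratio was 1.16 and 1.51 at the center and 2.48 and 1.93 at the margin, and in spiny mouse dermis it ranged from 0.282, at PWD14, to 1.13. Their laboratory mouse promoter windows, printed above, both held ACGTG and GCGTG, and those of the spiny mouse were not examined.

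Hypoxia response genes, a list in which P4ha1 and Plod2 could stand by their known regulation, mostly had higher estimates at PWD14 than at PWD21. Of 13 such genes, 11 were positive, with a median log2 fold change of 0.46 beside -0.04 over all genes. Scaling to library size alone was not tried on this list. It moved the tested members by -0.55 to -0.54 here, a shift larger than the list's median, so the direction may depend on the normalisation. By call, 6 were higher at PWD14, as were 3011 of all 12889 genes, and 1, Egln3, was lower (9.49 against 52.7 CPM, log2 fold change -1.93, SE 0.22, FDR 9.24e-05). Adm, a vasoactive peptide gene, was higher (27.5 against 10.3 CPM, 1.88, SE 0.38, FDR 0.00235). These 7 of 13 lie near the 46.6% of all genes called, as do 6 of 12 tested modification partners, of which 5 were lower at PWD14 and 1 was higher. Among them were Colgalt1, a collagen galactosyltransferase, at 10.8 against 41.7 CPM (-1.40, SE 0.21, FDR 0.000408) and Serpinh1 at 14.3 against 41.9 CPM (-1.01, SE 0.25, FDR 0.00723). Of 11 tested processing genes, 4 were called higher at PWD14 and 2 lower, also near the share of all genes. The matricellular gene Postn, which helps activate lysyl oxidase, was lower, at 309 against 1350 CPM (-1.58, SE 0.20, FDR 0.000159). Efemp2 was higher, at 22.8 against 10.1 CPM (1.67, SE 0.29, FDR 0.00101). All 8 substrates had higher point estimates at PWD14, and 1 was called. Col1a1, Col1a2 and Col3a1 together were at 241 and 191 CPM at PWD14 and at 253 and 32 CPM at PWD21, so the days overlapped. Scaling to library size alone was not tried on the substrates either. The fibroblast genes summed to 102 and 114 CPM at PWD14 and 291 and 299 CPM at PWD21, with Mfap5 at 0 in 1 PWD21 library. Most of the PWD21 sum was Thy1 (49 against 241 CPM), the 1 fibroblast gene of 10 tested that was called lower at PWD14. Another 2, Fbn1 (8.32 against 2.28 CPM) and Fstl1 (35.9 against 21.6 CPM), were called higher. The 6 adipocyte genes summed to 6305 and 5160 CPM against 1355 and 1059 CPM. Most of the adipocyte sum was Fabp4 (5731 against 1199 CPM), while 1 or 2 of Plin1, Cidec and Lep were at 0 in each of these libraries. Their part in these values was not tested.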

How the data were processed

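The unit is the raw read count per gene. Per the labels and the study's methods, the authors aligned 75-base reads with STAR (2.4.1d in the submitters' processing notes, 2.6.1d in the methods) to mm10 and counted them with HTSeq 0.6.0; the deposited counts hold 24500 gene symbols and 5 summary lines, which were left out. RNA was isolated with TRIzol per the labels. CPM is the count scaled to 1000000 reads on genes. Per kilobase values used the summed exon length of the GENCODE vM21 transcripts that have a RefSeq match.

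Genes were tested with edgeR 4.0.16 (glmQLFit with legacy = FALSE, TMM factors, filterByExpr, Benjamini-Hochberg over all tested genes, FDR under 0.05), with SE as the log2 fold change divided by the square root of F. Lox did not pass the filter in the 2 comparisons of spiny mouse epidermis between days. The alternatives were RLE factors, library size alone, no filter, DESeq2 1.42.0, the edgeR 3 form of the test, wider or narrower sets of libraries, and each library left out. The steps were tested on simulated data. No replicate pair agreed within sampling noise (chi-square per degree of freedom 28.3 to 375). Intervals and limits cover counting error only.

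The members, gene lists and tests were chosen with earlier results of these data known. The text names all members and, of each list and comparison, up to 4 called genes with the largest fold change. In 24500 symbols, 14 of 18 modification partners were found, the other 4 being older symbols of the same genes.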

Additional observations from a re-analysis of the deposited data

Results flagged for a closer look

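In the laboratory mouse, the center-to-margin difference was not the same in both layers for 3 members, by the interaction term of the edgeR fit: 2.99 on the log2 scale for Loxl1, 2.85 for Loxl2 and 2.32 for Plod2, each larger in epidermis. The regional difference within epidermis did not itself pass for these genes, and 3 of 12 fibroblast markers were called higher at the epidermal center. In the 5 WT center dermis libraries, no member had a sample far from the other 4, by a test for a single outlier. Such a test cannot flag a split into sets, like that of replicates 1 and 2 from replicates 3 to 5.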

How the results depend on the processing

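Counts of members called stayed within 1.5 times in 54 of 63 settings other than left-out libraries, and 584 of 619 log2 fold changes of members kept their sign and call. The layer comparisons kept 9, 10 and 10 members in all of them. The exceptions by count were the laboratory mouse epidermis by region (0 called; 1 with no filter on low counts, 5 by DESeq2), dermis by region (0; 4 by DESeq2, 1 with all 5 WT center libraries), KO against WT (0; 1 by DESeq2), spiny mouse epidermis PWD14 against PWD21 (4; 2 by DESeq2), spiny mouse dermis PWD21 against PWD0 (3; 6 with library size alone) and the added comparison of WT center sets (2; 4 by DESeq2, 1 by the edgeR 3 form).

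Signs turned with library size alone for Loxl1 (-0.01), Loxl3 (-0.39), Plod3 (-0.03) and P4ha2 (-0.35) in spiny mouse epidermis PWD14 against PWD21 and for P4ha1 (-0.16) in spiny mouse dermis PWD14 against PWD0, and with all 5 WT center libraries for Loxl4 (-0.23) in the KO comparison; none of these was called. That scaling moved the members' log2 fold changes by a median of -0.72 at the laboratory mouse center and -0.83 at the margin between layers, where all members stayed lower in epidermis. Scaling CPM by TMM factors moved 60 of 130 group levels by more than their spread. The cause was not tested.

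With each library left out, members called ranged from 0 to 9 in laboratory mouse epidermis by region (margin replicate 1 or 2, center replicate 1), 0 to 5 in the KO (KO replicate 1), 2 to 4 in spiny mouse epidermis PWD14 against PWD21 (PWD21 replicate 2), 2 to 6 in spiny mouse dermis PWD21 against PWD0 (either PWD0 library), 3 to 4 and 7 to 9 in PWD14 against PWD0 of epidermis and dermis, and 0 to 3 between the WT center sets, where leaving out replicate 1 or replicate 2 ended both calls and leaving out replicate 3 or 4 left 1. The layer comparisons stayed at 9, 10 and 10, and dermis by region at 0. The sign turned for P4ha1 in laboratory mouse epidermis (-0.37 to 0.08), in the KO for Loxl1 (-1.14 to 0.01), Loxl4 (-0.40 to 1.03), Plod1 (-0.08 to 0.17) and Plod2 (-0.21 to 0.03), in spiny mouse epidermis PWD14 against PWD21 for Loxl1 (-0.02 to 2.44), Loxl3 (-0.34 to 0.93), Plod1 (-0.75 to 0.33) and P4ha2 (-0.11 to 0.43), against PWD0 for Plod1 (-0.90 to 0.18), in spiny mouse dermis PWD21 against PWD0 for Loxl2 (-1.02 to 0.61) and P4ha2 (-0.55 to 0.10), and between spiny mouse layers for Plod2 (-0.76 to 1.02). Where 1 library remained in a group, it was assumed to vary like the others. Counts of members called from such fits are not read as results about the enzymes. No paired analysis was possible because the labels carry no replicate numbers. With 2 libraries in most groups, a difference that missed the threshold is not shown to be absent, and the low counts of lysyl oxidases in spiny mouse epidermis limit their precision.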

Other observations

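Of the 13 hypoxia response genes, none was called between center and margin in either layer of the laboratory mouse, although 9 of 13 had higher point estimates at the epidermal center. In spiny mouse epidermis from PWD0 to PWD14, Col1a1 went from 14.1 to 66.7 CPM on average in the edgeR fit with a lone PWD0 library (log2 fold change 2.97, SE 0.97). Col3a1 went from 19.1 to 108 CPM (3.22, SE 0.88), and Serpinh1, the chaperone of the folded chains, from 58.5 to 14.3 CPM (-1.31, SE 0.30). The subunit partner P4hb went from 746 to 1002 CPM (1.15, SE 0.20). Scaling to library size alone, which moved the members by a median of -0.71 here, was not tried on these genes.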
